A study of Mus musculus with 7 samples.

Results

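The genes described here encode enzymes and carriers of the citric acid (TCA) cycle and of mitochondrial fatty acid oxidation, with the pyruvate dehydrogenase complex that feeds the cycle. They were chosen by name, and all 37 had a row among the 12239 genes measured. RNA was sequenced from tibialis anterior (TA) muscle, a fast-twitch muscle of the hind leg, of male mice aged 5 to 6 months by the sample titles, although the methods and a legend of the study start the range earlier. The comparison was between 4 libraries from wild-type (WT) FVBN mice and 3 libraries from mice without a functional Mybpc2 gene (C2-/-), which encodes fMyBP-C, the fast skeletal form of myosin-binding protein C. In C2-/- a Neo cassette between LoxP sites stands in place of exons 2 to 22 of Mybpc2. The knockout mice were also on the FVBN background according to the methods, and the replaced allele is not restricted to muscle, so that every cell type in the sample carried it. Each titled library was taken as a separate sample. A legend of the study gives 3 C2-/- and 4 WT mice for this muscle, the same numbers as the libraries, whereas the series' design text gives 4 in each group.

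In muscle mitochondria, the pyruvate dehydrogenase complex turns pyruvate into acetyl-CoA, and beta-oxidation makes acetyl-CoA from fatty acids by shortening them in repeated rounds. The citric acid cycle oxidises acetyl-CoA to carbon dioxide and passes the electrons to the respiratory chain. Slow and oxidative fibres are known for a high content of these enzymes, and the fast fibres that make up most of the mouse TA rely more on glycolysis.

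The deposited values are log2 CPM, where CPM sets the reads of each gene against the size of its library, and a log2 change is the C2-/- mean minus the WT mean. A gene was called changed when limma gave a Benjamini-Hochberg adjusted p under 0.05 over all 12239 genes and a fold change above 1.5 either way, which is 0.585 on the log2 scale. Mybpc2 itself fell by 11.82 on the log2 scale (adjusted p = 4.85e-07) in the C2-/- libraries. The reads in the table came to between 14929214 and 15464499 in WT replicates 1 to 3, to 4683853 in WT replicate 4, and to between 2613277 and 4917936 in the C2-/- libraries. The depth therefore differed with the genotype, and its part in the results was not tested. In every library each of the 37 genes other than Cpt1b had at least 23 reads.

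Of the 37 genes, 10 rose and 12 fell in C2-/- muscle, and 15 did not pass the threshold. The 10 that rose stood against 20.2% of all genes that rose, and the 12 that fell against 25.0% of all genes that fell. Together 22 of the 37, or 59.5%, passed, beside 45.2% of all genes. The rises included the medium- and long-chain acyl-CoA dehydrogenases Acadm and Acadl, the electron carrier subunit Etfa and the pyruvate dehydrogenase subunits Dlat and Dld. The falls included citrate synthase (Cs), the short- and very-long-chain acyl-CoA dehydrogenases Acads and Acadvl, the enoyl-CoA hydratase Echs1 and the carrier subunit Etfb. The values of the WT and C2-/- libraries did not overlap for 24 of the 37 genes, beside 49.3% of all genes. C2-/- was higher in 11 of them (22.6% of all genes) and lower in 13 (26.7% of all genes). The median log2 change was 0.02 over the 37 genes and -0.14 over all genes, and the median size of a change, whichever its sign, was 0.83 over the 37 and 0.91 over all genes. With quantile normalization 7 of the 37 rose and 13 fell, and with each library centred on its median 11 rose and 9 fell. This centring moved the median change of all genes to 0.02, so a small fall on the deposited scale is smaller still relative to the other genes.

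The direction of these differences went with the base composition of the transcripts. The transcripts of the 10 genes that rose had a GC content of 38.4% to 48.0% (median 45.3%), and those of the 12 that fell had 50.4% to 60.1% (median 52.7%), with no overlap. Over all genes tested the medians were 43.9% for those that rose and 55.7% for those that fell. Across the 37 genes the log2 change and the GC content had a Pearson correlation of -0.75 (Spearman -0.76), and across the 12175 genes with a known GC content -0.66 (Spearman -0.68). These are correlations across genes measured in the same 7 libraries, and genes are not independent replicates. The change was therefore also computed after the dependence on GC content had been removed from each library, which is called GC-corrected below. After this step 13 of the 37 genes passed, beside 20.6% of all genes, with 8 rises and 5 falls beside 12.3% and 8.33%. Of these, 9 (Cs, Dlat, Cpt1b, Acadl, Acadm, Acadvl, Acads, Echs1 and Etfa) passed in the same direction with and without it. What this association rests on was not tested.

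**Figure D1:**
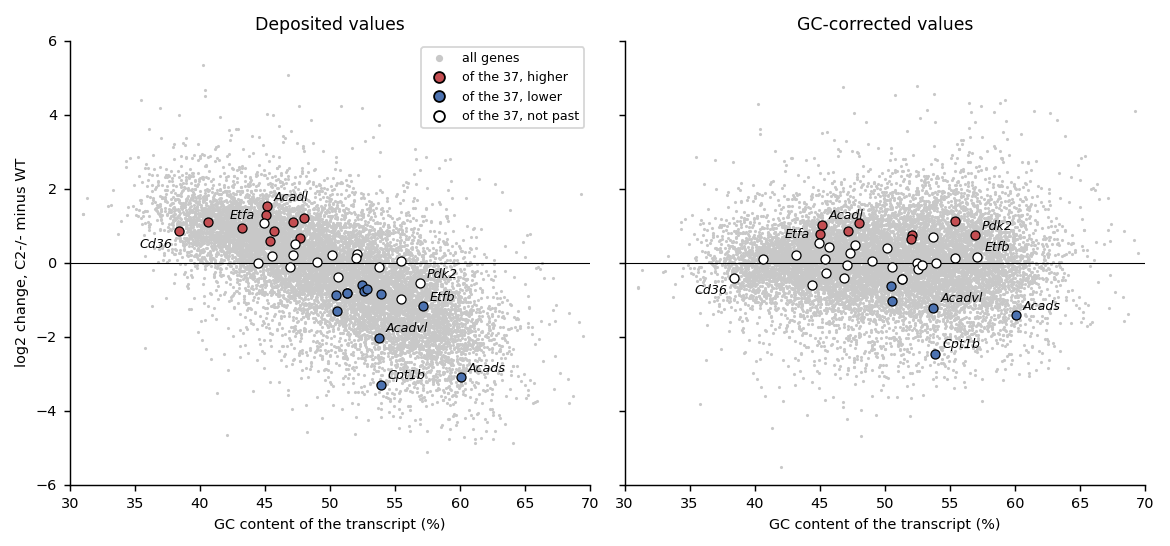
Log2 change between C2-/- and WT (vertical axis) against the GC content of the transcript in percent (horizontal axis), for the deposited values on the left and the GC-corrected values on the right. Grey points are all genes with a known GC content (1 gene with a change beyond 6 on the log2 scale in each panel and 3 genes outside 30% to 70% GC are not drawn), and large circles are the 37 genes, red where they rose, blue where they fell and white where they did not pass. On the left the red circles lie at or below 48.0% GC and the blue circles at or above 50.4%. On the right the correlation of the 37 genes with GC content is -0.18 and 13 genes are coloured, 9 of them also on the left.

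The contrast can be read from the genes themselves. Below are 120 coding bases from the middle of each of 2 coding sequences of GRCm38 (GENCODE M21), written 5′ to 3′ on the coding strand with G and C in capitals. They were picked after the values were seen, to show the partner subunits of the electron transfer flavoprotein, of which Etfa rose and Etfb fell.
Etfa: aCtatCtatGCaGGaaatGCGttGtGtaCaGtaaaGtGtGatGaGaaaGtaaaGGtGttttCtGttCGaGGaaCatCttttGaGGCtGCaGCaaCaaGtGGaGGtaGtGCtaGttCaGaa
Etfb: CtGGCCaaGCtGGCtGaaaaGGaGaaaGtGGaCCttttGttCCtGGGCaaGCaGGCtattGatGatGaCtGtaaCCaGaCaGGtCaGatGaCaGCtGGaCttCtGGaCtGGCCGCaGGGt

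In Etfa, at chr9:55454508-55512243 on the minus strand, coding bases 439 to 558 hold 50 G or C, and in Etfb, at chr7:43444083-43457800 on the plus strand, coding bases 322 to 441 hold 64. Over the whole coding sequence the GC content was 45.5% in Etfa and 57.5% in Etfb. At the third position of the codons, which mostly leaves the amino acid free, the 10 genes that rose had a median GC of 45.3% (33.0% to 56.6%) and the 12 that fell a median of 61.2% (50.2% to 71.8%), and here the ranges overlapped.

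WT replicate 4 stood apart from the other WT libraries. Over the 37 genes its log2 values correlated with those of WT replicates 1 to 3 at a Pearson r of 0.928 to 0.964, and with those of the C2-/- libraries at 0.935 to 0.961, whereas WT replicates 1 to 3 correlated with each other at 0.985 to 0.987. In 7 of the 22 genes that passed (Mdh1, Cpt2, Hadha, Echs1, Acaa2, Etfb and Fabp3) WT replicate 4 was closer to the average of the C2-/- libraries than to that of the other WT libraries. All 22 kept their direction when the C2-/- mean was set against WT replicate 4 alone. For all of them but Fabp3 this was fixed in advance, because their groups did not overlap and every C2-/- value lay beyond WT replicate 4. The differences from WT replicate 4 were as small as -0.26 for Cpt2 and -0.32 for Acaa2. Without WT replicate 4, 10 of the 37 genes rose and 13 fell, Idh2 being the gene added.

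**Figure D2:**
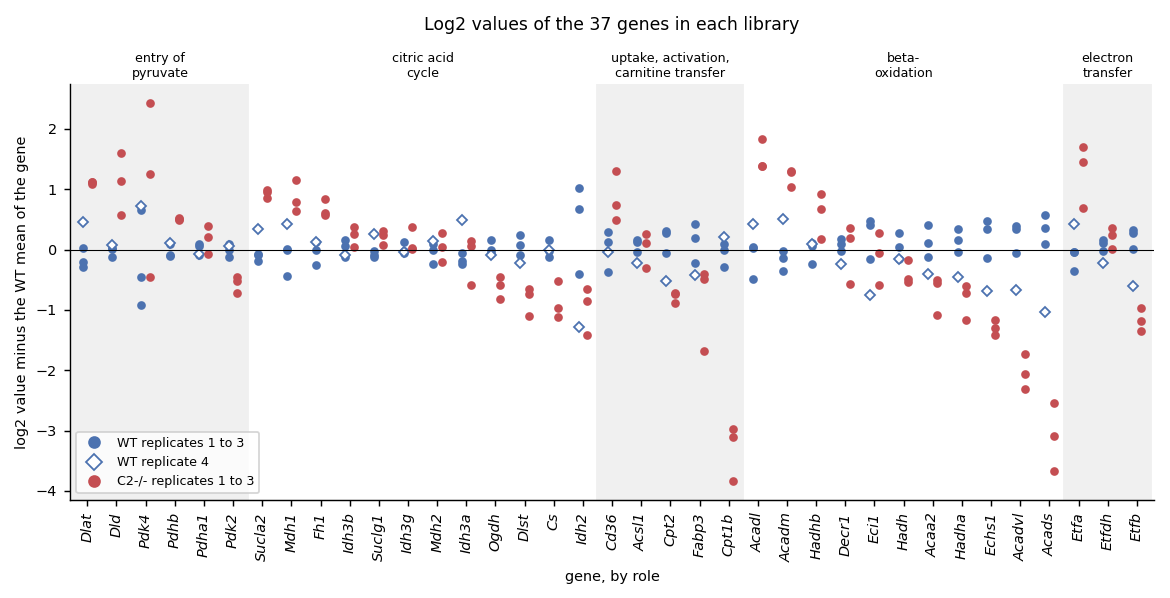
Log2 value of each of the 37 genes in each library, minus the mean of the WT libraries of that gene (vertical axis), with the genes ordered by role along the horizontal axis. Filled blue circles are WT replicates 1 to 3, open diamonds WT replicate 4 and red circles the 3 C2-/- libraries. The C2-/- points lie above every WT point for 11 genes and below every WT point for 13, and the diamonds of genes such as Acads, Acadvl and Echs1 lie between both groups.

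TA muscle was checked by its markers, and other cell types by theirs. Of 10 markers of fast fibres, 6 fell and the others did not pass, and their summed level was 199343 to 233133 CPM in WT and 103710 to 126016 CPM in C2-/-, abundant in both groups. The part of this fall in the results was not tested. After GC correction the changes of these 6 markers were -0.70 for Acta1, -1.002 for Ckm, -1.39 for Pvalb, -0.39 for Mylpf, -0.06 for Actn3 and 0.15 for Atp2a1, so that the last turned in sign. The markers that did not pass all turned in sign as well, at 0.45 for Myh4, 0.24 for Myh1, 0.44 for Tnnt3 and 0.68 for Tnni2. Of 9 markers of slow or oxidative fibres, 1 fell (Mb, myoglobin) and the others did not pass, with a summed level of 2711 to 7005 CPM in WT and 1636 to 2085 CPM in C2-/-. Most of that sum was Mb, the lowest WT value was that of WT replicate 4, and Myh7, the slow myosin heavy chain, had 0 reads in every C2-/- library and in WT replicate 4. All 5 fibroblast markers rose (453 to 774 CPM in WT, 1514 to 1864 CPM in C2-/-). In whole muscle, fewer cells of a type and less RNA per cell cannot be told apart. The 37 genes together took 1.37% to 1.73% of the reads in WT and 1.77% to 2.11% in C2-/-.

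The 37 genes hold 6 genes of the pyruvate dehydrogenase complex and its kinases, of which 2 rose (Dlat and Dld) and 4 did not pass. Dlat, the acetyltransferase core of the complex, had log2 values of 8.28, 8.20, 8.52 and 8.95 in WT and 9.58, 9.61 and 9.60 in C2-/-. The C2-/- libraries lay together above every WT library, a rise of 1.11 ± 0.19 (SE, adjusted p = 0.00177) that held after GC correction (0.86, adjusted p = 0.0104). Dld, the dihydrolipoamide dehydrogenase that the complex shares with oxoglutarate dehydrogenase, had 8.62, 8.49, 8.64 and 8.68 in WT and 9.19, 9.75 and 10.21 in C2-/-. It rose by 1.11 ± 0.22 (adjusted p = 0.00324) without overlap, but its transcript has a GC content of 40.6%, and the GC-corrected change was 0.09 (adjusted p = 0.789).

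The other genes of this step among the 37 did not pass. Pdhb, the beta subunit of the first enzyme of the complex, had 8.22 to 8.44 in WT and 8.81 to 8.85 in C2-/-, without overlap, but its log2 change of 0.50 (adjusted p = 0.0149) was under the fold required. With median centring Pdhb passed as higher (0.67, adjusted p = 0.00491). Its partner Pdha1 had 9.97 to 10.16 in WT and 9.99 to 10.46 in C2-/- (change 0.18, adjusted p = 0.392). Pdk2, a kinase that switches the complex off, had 9.54, 9.66, 9.76 and 9.72 in WT and 9.22, 8.95 and 9.15 in C2-/-. The C2-/- values were the lower ones, with a log2 change of -0.56 (adjusted p = 0.0119) just under the fold required, and it passed as lower without WT replicate 1, C2-/- replicate 1 or C2-/- replicate 3, and with quantile normalization (-0.84). After GC correction the sign turned and Pdk2 passed as higher in C2-/- (0.75, adjusted p = 0.0161), at a transcript GC content of 56.9%, so no direction is given for it. Pdk4, the kinase that is induced by fasting and by fatty acids, had the widest spread of the 37 genes among the C2-/- libraries (SD 1.45), with 8.95, 7.84, 7.37 and 9.01 in WT and 7.83, 10.72 and 9.55 in C2-/-. These groups overlapped (change 1.07 ± 0.61, adjusted p = 0.170), and Pdk4 passed in the fit without C2-/- replicate 1 alone among the fits that left out a library (1.84). Outside the 37, the kinase gene Pdk1 rose by 0.95 (adjusted p = 0.00146) without overlap. It also passed after GC correction (0.59, adjusted p = 0.0174). The kinase gene Pdk3 did not pass (adjusted p = 0.115). Both were named after their values were seen.

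Among 12 genes grouped under the citric acid cycle, with the cytosolic Mdh1 counted beside the mitochondrial enzymes, 3 rose, 3 fell and 6 did not pass. Citrate synthase (Cs), which joins acetyl-CoA to oxaloacetate and is widely used as a measure of mitochondrial content, had 10.57, 10.48, 10.75 and 10.58 in WT and 10.07, 9.62 and 9.47 in C2-/-. Every C2-/- library was below every WT library, and the fall of 0.88 (SE 0.18, adjusted p = 0.00404) remained a fall after GC correction (-0.63, adjusted p = 0.0235). Per kilobase of transcript, Cs had the second highest level of the 37 genes in WT (530 CPM per kb), after Mdh2 (840), and stood at 292 CPM per kb in C2-/-. In the oxoglutarate dehydrogenase complex Dlst and Ogdh fell, whereas Dld, which it shares, rose as given above. The core transferase Dlst had 8.48 to 8.94 in WT and 7.61 to 8.05 in C2-/- and fell by 0.83 (adjusted p = 0.00416). Ogdh, its first enzyme, had 10.48 to 10.73 in WT and 9.76 to 10.12 in C2-/- and fell by 0.61 (adjusted p = 0.0122), just past the fold required. Neither of these falls passed after GC correction, with changes of -0.44 for Dlst and -0.02 for Ogdh. The fall of Ogdh was also lost with median centring (-0.45). The same held without WT replicate 3 or without C2-/- replicate 3, where the change was as small as -0.52.

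The 3 rises of this group were in Sucla2, Fh1 and Mdh1. Sucla2, the beta subunit of the ATP-making succinyl-CoA ligase, had 9.18, 9.07, 9.19 and 9.61 in WT and 10.12, 10.21 and 10.25 in C2-/-, a rise of 0.93 ± 0.17 (adjusted p = 0.00221). Fh1, fumarase, had 7.88 to 8.26 in WT and 8.71 to 8.97 in C2-/- and rose by 0.67 ± 0.16 (adjusted p = 0.00716). Mdh1, the cytosolic malate dehydrogenase that serves the malate-aspartate shuttle, had 9.06 to 9.92 in WT and 10.13 to 10.65 in C2-/- and rose by 0.86 ± 0.22 (adjusted p = 0.0104). All 3 were above every WT library, and all 3 were smaller and did not pass after GC correction (0.20 for Sucla2, 0.49 for Fh1 and 0.42 for Mdh1).

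The mitochondrial malate dehydrogenase Mdh2, the most abundant of the 37 per kilobase, had 10.01 to 10.39 in WT and 10.05 to 10.53 in C2-/-, which overlap (change 0.04, adjusted p = 0.853). The 3 subunits of the NAD-dependent isocitrate dehydrogenase did not pass either, with changes of -0.13 for Idh3a, 0.23 for Idh3b and 0.13 for Idh3g. Suclg1, the alpha subunit that Sucla2 pairs with, had a change of 0.21 (adjusted p = 0.283). Mdh2, Idh3b and Idh3g, whose transcripts have a GC content of 55.4%, 52.1% and 52.0%, passed as higher only after GC correction (1.14, 0.76 and 0.65). Idh2, the NADP-dependent isocitrate dehydrogenase of mitochondria, split the WT libraries. It had 7.60, 6.52, 7.95 and 5.65 in WT and 6.08, 6.28 and 5.51 in C2-/-, so that WT replicate 4 fell among the C2-/- libraries (change -0.98 ± 0.48, adjusted p = 0.115), and the change was -1.40 without that library.

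Among 5 genes of fatty acid uptake, activation and transfer into the mitochondrion 1 rose, 3 fell and 1 did not pass. Cd36, the fatty acid translocase of the cell surface, had 8.59, 7.92, 8.41 and 8.25 in WT and 9.03, 9.59 and 8.79 in C2-/-. It rose by 0.84 ± 0.22 (adjusted p = 0.0124) without overlap, but it has the lowest GC content of the 37 transcripts (38.4%), and the GC-corrected change was -0.41 (adjusted p = 0.241), so its direction depends on that step. Fabp3, the fatty acid binding protein of heart and muscle cytosol, had 8.06, 7.42, 7.83 and 7.22 in WT and 7.23, 7.15 and 5.96 in C2-/-. The groups overlapped, the fall of 0.85 (SE 0.32) was at the edge of the threshold (adjusted p = 0.0492), and it was lost without WT replicate 1, 2 or 3 and without C2-/- replicate 3, where the change was -0.44. After GC correction the change of Fabp3 was -0.0031 (adjusted p = 0.995), at a transcript GC content of 53.9%. Acsl1, which activates long-chain fatty acids, had a change of 0.02 (adjusted p = 0.941).

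Cd36 is also made by adipocytes and capillary endothelium, so these markers are given beside it. Of 5 adipocyte markers measured, 2 rose (Fabp4 and Pparg) and the others did not pass, and their summed level was 164 to 370 CPM in WT, highest in WT replicate 4, and 477 to 644 CPM in C2-/-. Most of that sum was Fabp4, which endothelium makes as well, and the defining marker Adipoq was at log2 values of -3.36 to 1.62 in WT and -0.95 to 1.67 in C2-/-. Of 8 endothelial markers 2 rose and 2 fell (585 to 740 CPM in WT, 639 to 752 CPM in C2-/-). After GC correction the changes of these markers were smaller, at 0.41 for Fabp4 (1.47 as deposited), 0.22 for Emcn (1.14), -0.04 for Cav1 (0.76), 0.24 for Vwf (-1.02) and -0.54 for Tie1 (-1.93), whereas that of Pparg was 1.83 (1.62). Their part in the rise of Cd36 was not tested.

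Cpt1b and Cpt2, carnitine palmitoyltransferases that transfer long-chain acyl groups to and from carnitine on their way into the mitochondrion, were lower in C2-/-. Cpt1a, the other outer-membrane form measured, which was named after its values were seen, overlapped between groups (change 0.27, adjusted p = 0.682). Cpt2, the inner-membrane enzyme, had 6.53, 6.20, 6.57 and 5.74 in WT and 5.55, 5.37 and 5.53 in C2-/-. It fell by 0.78 (SE 0.22, adjusted p = 0.0173) without overlap, with WT replicate 4 close to the C2-/- values, and the change was -0.16 after GC correction. Leaving out WT replicate 1, WT replicate 3 or C2-/- replicate 2 ended the call. Cpt1b, the muscle form of the rate-controlling outer-membrane enzyme, had only 22, 23, 18 and 7 reads in WT and 0 reads in each C2-/- library. Against a floor of 3 reads per C2-/- library its level was at least 1.28-fold lower in C2-/-, and the adjusted p was 0.00467. The call held with GC correction (adjusted p = 0.0310) but was lost with quantile normalization (adjusted p = 0.114) and with GC correction without WT replicate 4 (adjusted p = 0.0536). This bound covers counting error only, since PCR copies are not independent molecules.

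At 0.514 CPM per kb in WT, Cpt1b had the lowest level of the 37 genes, far under Cpt2 (33.2). Its locus at chr15:89416405-89425863 (GRCm38, minus strand) is shared with Gm44502, a gene annotated on the same strand, and 81.4% of the exonic bases of Cpt1b also belong to an exon of Gm44502. Reads in the shared exons cannot be given to one of the genes alone, and how the counting treated them is not given in the sources used here, so the level of Cpt1b is uncertain. That overlap is in GENCODE M21, and RefSeq GRCm38.p6 also places both genes there. In GENCODE M21 exons are likewise shared by Etfb (53.0% with Gm45233, same strand) and, with a gene on the opposite strand, by Acadvl (42.9% with Dvl2) and Pdha1 (16.1% with Map3k15). Of these RefSeq, whose build the authors used, has only the overlap of Pdha1 with Map3k15. Whether the counting used strand is not given in the sources used here.

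**Figure D3:**
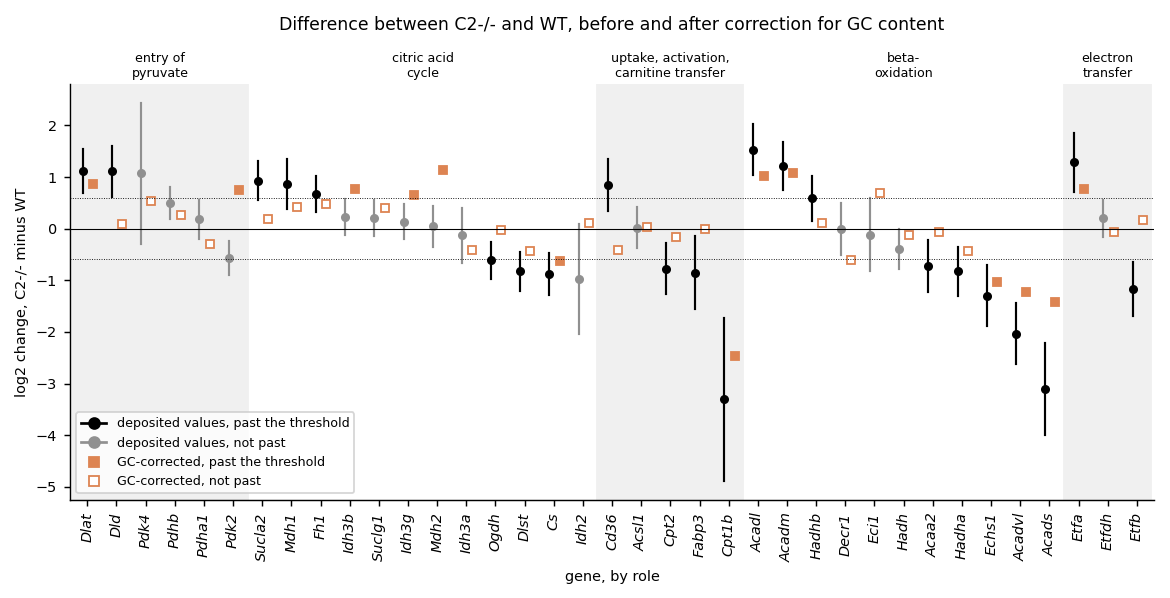
Log2 change between C2-/- and WT for each of the 37 genes (vertical axis), ordered by role along the horizontal axis. Circles with 95% confidence intervals are the deposited values, black where the gene passed the threshold and grey where it did not, and orange squares are the GC-corrected changes, filled where they passed. The dotted lines stand at a change of 1.5-fold, and the squares of Acadl, Acadm, Acadvl, Acads and Echs1 lie on the same side as their circles, whereas that of Pdk2 lies on the other side.

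Among the 11 genes of beta-oxidation 3 rose, 5 fell and 3 did not pass. Its first step is carried out by acyl-CoA dehydrogenases that differ in the length of chain they take, and the 4 genes moved in opposite directions. Acadvl, for very long chains, had 8.80, 8.39, 8.84 and 7.78 in WT and 6.39, 6.73 and 6.14 in C2-/-. Acadl, for long chains, had 8.40, 7.88, 8.39 and 8.78 in WT and 9.75, 10.19 and 9.75 in C2-/-. Acadm, for medium chains, had 8.78, 8.57, 8.90 and 9.43 in WT and 9.96, 10.22 and 10.21 in C2-/-.

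In all 3 of these genes the groups were apart, with the C2-/- libraries below every WT library for Acadvl and above every WT library for Acadl and Acadm. Acads, for short chains, had 6.59, 6.32, 6.81 and 5.20 in WT and 3.69, 3.14 and 2.56 in C2-/-, so the highest C2-/- library was well below the lowest WT library. Acadvl fell by 2.03 (SE 0.26, adjusted p = 5.38e-04) and Acads fell by 3.10 (SE 0.40, adjusted p = 5.13e-04). Acadl rose by 1.53 (SE 0.22, adjusted p = 7.93e-04) and Acadm by 1.21 (SE 0.21, adjusted p = 0.00177).

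These 4 calls remained after GC correction with smaller sizes. The GC-corrected changes were -1.22 for Acadvl, 1.02 for Acadl, 1.07 for Acadm and -1.42 for Acads, with adjusted p-values of 0.00830, 0.00813, 0.00725 and 0.0115. For Acadvl and for Acads, whose transcript has the highest GC content of the 37 (60.1%), the deposited log2 change was more than 1.5 times the GC-corrected one. WT replicate 4 lay on the C2-/- side of the other WT libraries in all 4 genes. In levels per kilobase, Acadl and Acadm stood at 176 and 243 CPM per kb in WT and 503 and 549 in C2-/-, Acadvl at 168 and 40.1, and Acads at 43.5 and 4.92.

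Acadm is a textbook target of the estrogen-related receptors, nuclear receptors that drive oxidative genes, and its upstream bases are shown for that reason. These are the 250 bases before the RefSeq start of Acadm (GRCm38.p6, chr3:153944644-153944893, minus strand), with the letters AAGGTCA, here as their reverse complement, in capitals.
Acadm upstream: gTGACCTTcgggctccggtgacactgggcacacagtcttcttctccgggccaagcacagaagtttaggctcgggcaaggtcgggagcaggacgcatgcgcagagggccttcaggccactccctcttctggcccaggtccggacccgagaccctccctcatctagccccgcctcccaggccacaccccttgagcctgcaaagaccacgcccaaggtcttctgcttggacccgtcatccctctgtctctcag

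RefSeq promoter windows of 300 bases (250 before to 50 after a start) were found for 33 of the 37 genes, 40 windows in all. AAGGTCA holds the core letters of the half-site of the estrogen-related receptors, not the whole site. It was found on either strand in 2 of the 40 windows (Acadm and 1 of the windows of Ogdh) and in 4.72% of all 32851 windows. A match of letters is a description only.

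The later steps of beta-oxidation were split as well. Echs1, the enoyl-CoA hydratase for short chains, had 7.07, 6.59, 7.19 and 6.04 in WT and 5.30, 5.55 and 5.42 in C2-/-. It fell by 1.30 (SE 0.27, adjusted p = 0.00375) without overlap, and by 1.03 after GC correction (adjusted p = 0.0185). Hadh, the hydroxyacyl-CoA dehydrogenase for shorter chains, had 7.52 to 7.96 in WT and 7.14 to 7.51 in C2-/-, apart but close, and did not pass (change -0.40, adjusted p = 0.0806), though it passed as lower with quantile normalization (-0.60, adjusted p = 0.0211).

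Hadha and Hadhb encode the alpha and beta subunits of the mitochondrial trifunctional protein, which carries out these steps on long chains at the inner membrane. Hadha had 8.67, 8.47, 8.84 and 8.05 in WT and 7.90, 7.79 and 7.34 in C2-/-, and fell by 0.83 (SE 0.22, adjusted p = 0.0117). Hadhb had 8.37, 8.07, 8.42 and 8.40 in WT and 8.98, 9.23 and 8.49 in C2-/-, and rose by 0.59 ± 0.19 (adjusted p = 0.0314), at the very edge of the fold required. Neither gene overlapped between groups, and neither passed after GC correction (-0.44 for Hadha, 0.11 for Hadhb). The rise of Hadhb was lost in 5 of the 7 fits that left out a library, all but those without WT replicate 4 or C2-/- replicate 3.

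Hadha and Hadhb lie head to head on chromosome 5, Hadha at chr5:30118304-30155162 on the minus strand and Hadhb at chr5:30155248-30184593 on the plus strand, so that both are read outward from the same 85 bases. That interval, chr5:30155163-30155247 (sequence from the RefSeq windows, GRCm38.p6), is shown on the strand of Hadhb, all in capitals because it lies upstream of both genes.
Hadha and Hadhb interval: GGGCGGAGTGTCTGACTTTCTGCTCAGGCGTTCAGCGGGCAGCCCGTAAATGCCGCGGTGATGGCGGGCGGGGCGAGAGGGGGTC

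The interval has a GC content of 69.4%. The transcripts on either side of it differ, with 51.3% for Hadha, which fell, and 45.4% for Hadhb, which rose.

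Of the remaining genes of beta-oxidation, Acaa2, the thiolase that ends a round, had 6.69 to 7.49 in WT and 6.00 to 6.58 in C2-/- and fell by 0.72 (SE 0.23, adjusted p = 0.0253). It did not pass after GC correction (-0.06) or with median centring (-0.56), nor without WT replicate 1, WT replicate 3 or C2-/- replicate 2. Eci1 and Decr1 serve unsaturated fatty acids, as an isomerase and a reductase, and both overlapped between groups. Eci1 had 5.64 to 6.88 in WT and 5.81 to 6.68 in C2-/- (change -0.12, adjusted p = 0.772), and Decr1 had 6.59 to 7.01 in WT and 6.26 to 7.18 in C2-/- (change -0.01, adjusted p = 0.986). With GC correction the change of Decr1 was -0.60 (adjusted p = 0.0921), and without WT replicate 4 as well it was -0.73 and passed as lower (adjusted p = 0.0388).

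The acyl-CoA dehydrogenases hand their electrons to electron transfer flavoprotein, made of an alpha (Etfa) and a beta subunit (Etfb), and Etfdh passes them to ubiquinone. Etfa had 7.63, 7.30, 7.63 and 8.09 in WT and 8.36, 9.12 and 9.37 in C2-/-. It rose by 1.29 ± 0.26 (adjusted p = 0.00341), and by 0.76 after GC correction (adjusted p = 0.0433). Etfb had 7.31, 7.04, 7.36 and 6.43 in WT and 6.06, 5.68 and 5.85 in C2-/-.

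Both groups of values were apart for Etfb, and it fell by 1.17 (SE 0.24, adjusted p = 0.00337). After GC correction, however, the change of Etfb was 0.16 (adjusted p = 0.521), at a transcript GC content of 57.1%, so no fall was found by that measure. Etfdh had 7.13 to 7.51 in WT and 7.37 to 7.72 in C2-/- and did not pass (change 0.20, adjusted p = 0.317).

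Several of these proteins work as complexes with a fixed number of each subunit, so the difference between partner genes was taken within each library. The pairs were chosen after the values were seen, and no test was made. Etfa minus Etfb was 0.32, 0.26, 0.27 and 1.66 on the log2 scale in WT and 2.30, 3.44 and 3.52 in C2-/-. The first 3 WT libraries had nearly equal values, WT replicate 4 was intermediate, and the C2-/- mean exceeded the WT mean by 2.46, or by 0.60 after GC correction. Hadhb minus Hadha was -0.30, -0.40, -0.42 and 0.35 in WT and 1.08, 1.44 and 1.15 in C2-/-, a difference between group means of 1.41, or of 0.54 after GC correction.

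Sucla2 minus Suclg1 was 1.18 to 1.35 in WT and 1.94 to 2.03 in C2-/-, the tightest of the pairs, and WT replicate 4 stayed with the other WT libraries. Its group means differed by 0.72, and by -0.21 after GC correction. For Pdhb minus Pdha1, Idh3a minus Idh3b and Idh3a minus Idh3g the groups overlapped on the deposited scale, with differences between group means of 0.33, -0.36 and -0.26. After GC correction these were 0.56, -1.18 and -1.06, so that on that scale the pairs with Idh3a differed by more than Etfa and Etfb.

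**Figure D4:**
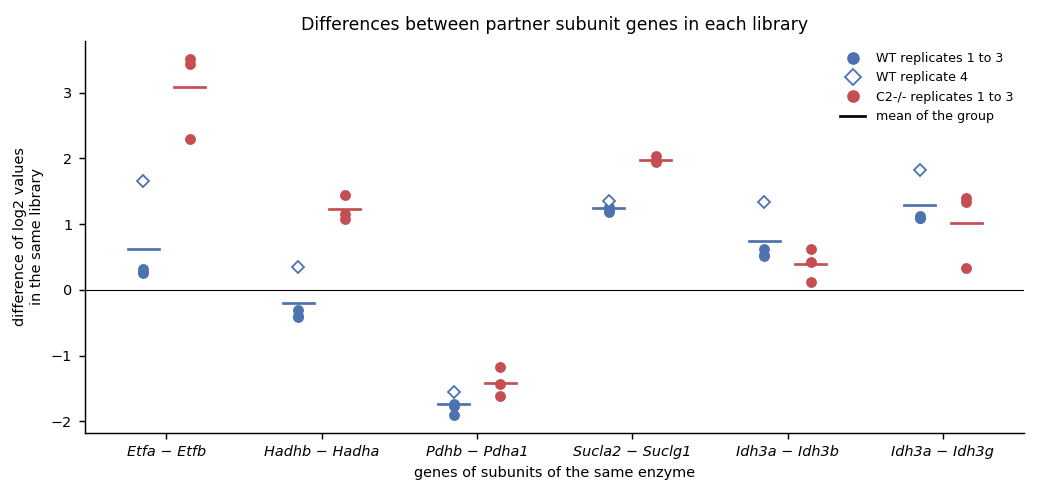
Difference between the log2 values of partner subunit genes in the same library (vertical axis) for 6 pairs (horizontal axis). Filled blue circles are WT replicates 1 to 3, open diamonds WT replicate 4, red circles the 3 C2-/- libraries and short lines the group means. For Etfa and Etfb the WT points lie between 0.26 and 1.66 and the C2-/- points between 2.30 and 3.52, whereas the groups overlap for Pdhb with Pdha1, Idh3a with Idh3b and Idh3a with Idh3g.

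Other genes of the same pathways were counted as a list. Of 67 listed, 66 were measured, and Acot1 was not analysed here. In C2-/- 17 of the 66 rose, 18 fell and 31 did not pass, beside 20.2% and 25.0% of all genes, with a median log2 change of -0.32. After GC correction 10 rose and 8 fell, beside 12.3% and 8.33% of all genes on that scale. Of the 4 subunits of succinate dehydrogenase, which sits in both the cycle and the respiratory chain, Sdhc alone passed, with a rise of 1.24 ± 0.30 (adjusted p = 0.00814) that remained after GC correction (1.21, adjusted p = 0.0215). The changes of Sdha, Sdhb and Sdhd were -0.50, -0.11 and -0.49. Sdhb passed as higher after GC correction (0.89), and WT replicate 4 (9.37) was nearer to the C2-/- mean of Sdhc (9.66) than to the WT mean (8.42).

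Pdhx, which binds Dld to the pyruvate dehydrogenase core, had a change of 0.08, and Slc25a20, which exchanges acylcarnitines across the inner membrane between the steps of Cpt1b and Cpt2, one of -0.65 (adjusted p = 0.0551). Neither passed. Among the regulators, Ppargc1a, a coactivator of mitochondrial biogenesis, rose by 1.61 ± 0.33 (adjusted p = 0.00368), with 783, 619, 729 and 465 reads in WT and 495, 646 and 616 in C2-/-. The estrogen-related receptor gene Esrrg rose by 1.37 (adjusted p = 0.00295) and Tfam, which maintains mitochondrial DNA, by 0.63 (adjusted p = 0.0296). The groups of Tfam overlapped, with 6.07 in WT replicate 4 and 6.03 in C2-/- replicate 1. Esrra, of the same receptor family, fell by 2.42 (adjusted p = 9.89e-04), and Ppard, a fatty acid-sensing nuclear receptor, fell by 0.96 (adjusted p = 0.00791). None of these 5 passed after GC correction, where the changes were 0.70 for Ppargc1a, 0.55 for Esrrg, 0.09 for Tfam, -0.57 for Esrra and 0.70 for Ppard, so that the sign of Ppard turned. Ppara, another fatty acid sensor, the nuclear respiratory factor Nrf1 and the coactivator Ppargc1b did not pass, with changes of 0.03, -0.64 and 0.55, but Ppargc1b passed as higher after GC correction (1.98, adjusted p = 0.0198).

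The largest rises in the list were those of Pparg (1.62), Ppargc1a (1.61) and the acyl-CoA thioesterases Acot2 (1.60) and Acot13 (1.59). The rises of Pparg, Acot2 and Acot13 remained after GC correction (1.83, 2.41 and 1.75). Pparg, which was also counted among the adipocyte markers, had 19 to 68 reads in WT and 29 to 71 in C2-/-. The largest falls were those of the peroxisomal thiolase Acaa1a (-3.57), the fatty acid transporter Slc27a4 (-3.20), pyruvate carboxylase Pcx (-2.90), which refills the cycle with oxaloacetate, and Acad10 (-2.62). Of these Pcx alone passed after GC correction (-1.48, adjusted p = 0.00315), although the GC-corrected changes of Acaa1a, Slc27a4 and Acad10 were larger (-1.95, -1.90 and -1.54). It had 1143, 1258, 1238 and 245 reads in WT and 34, 15 and 65 in C2-/-, whereas Acaa1a, Slc27a4 and Acad10 had 0 reads in C2-/- replicate 2 and at most 30 in the other C2-/- libraries.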

How the data were processed

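The authors trimmed the reads, aligned them to GRCm38.p6 with HISAT, counted them per gene with featureCounts 1.5.2 and scaled the libraries with TMM factors. The deposited table holds log2 CPM values as the authors made them, 1 column per library and 12239 genes. How low genes were filtered, whether strand was used and what was done with reads mapped to several places are not given in the sources used here. A second deposited table holds the authors' own comparison of C2-/- with WT and was not used. Each deposited log2 value equalled that of a whole number of reads plus 0.5 over the effective library size, so reads were recovered (100% whole, with a largest departure of 2.2e-08 reads). Falls to few reads are therefore understated.

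The test was limma 3.58.1 in R 4.3.3 (lmFit, eBayes with trend, genotype as the only term, 7 libraries, two-sided) on the deposited values, tested first on simulated data. Fold changes hold the 0.5 reads added before the log. For the GC correction, a natural spline (5 degrees of freedom) of the values on transcript GC content (longest protein-coding GENCODE M21 transcript of each gene, else the longest, 12175 genes) was replaced in each library by the mean curve. The genes and lists were chosen with earlier results of these data known. All 37 genes were named, and from the list of other pathway genes the succinate dehydrogenase subunits, Pdhx, Slc25a20, the regulators, and the 4 largest rises and 4 largest falls past the threshold, and 1 gene that the rule names is not reported here. Cpt1a, Pdk1 and Pdk3 were added after their values were seen. Other normalizations, filters, tests, thresholds and libraries left out were tried. Same-numbered WT and C2-/- libraries did not deviate together, so the numbers were not used as pairs.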

Additional observations from a re-analysis of the deposited data

Results flagged for a closer look

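Each of the 37 genes, and the reads per library, was examined for a WT library far from the other 3, by Dixon's test of the gap to its nearest neighbour over the whole range. Of 38 groups of values 2 stood out, where chance gives about 1.9 (1 in 20). The log2 value of Hadhb in WT replicate 2 was 8.07, below the 8.37 to 8.42 of the other WT libraries. The reads in the table of WT replicate 4 came to 4683853, below the 14929214 to 15464499 of the other WT libraries. The 3 C2-/- libraries were too few to be examined in this way.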

How the results depend on the processing

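Of the 22 genes that passed, 8 (Cs, Dlat, Acadl, Acadm, Acadvl, Acads, Echs1 and Etfa) passed in the same direction under every alternative tried that kept them in the test, and 12 did so under those without GC correction, which adds Dlst, Dld, Sucla2 and Etfb. With each library left out in turn, 9 to 10 of the 37 genes rose and 8 to 13 fell, the lowest without WT replicate 3, and 17 of the 22 passed in all 7 fits. Cpt1b could not be tested under the filter that kept genes with a mean log2 of 3 or more.

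The number of the 37 genes that fell was 12, and 7 with an adjusted p under 0.01, 5 with GC correction, 5 with GC correction and the replicate block, and 5 with GC correction without WT replicate 4, a setting chosen after the data were seen. Of the other pathway genes 17 rose, and 11 did with an adjusted p under 0.01 and 10 with GC correction. Of these genes 18 fell, and 8 did with GC correction, 10 with GC correction and the replicate block and 9 with GC correction without WT replicate 4. Of all genes 5528 passed, and 3216 with an adjusted p under 0.01, 2509 with GC correction, 2912 with GC correction and the replicate block and 3126 with GC correction without WT replicate 4.

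Where a log2 change turned in sign, the gene did not pass with the deposited values, under the alternative or in either. With GC correction they became 0.11 for Idh2, -0.29 for Pdha1, 0.75 for Pdk2, 0.69 for Eci1, 0.16 for Etfb, -0.057 for Etfdh and -0.41 for Cd36. With GC correction and the replicate block, and equally with GC correction without WT replicate 4, they became 0.0095 for Ogdh, -0.35 for Pdha1, 0.87 for Pdk2, 0.51 for Eci1, 0.068 for Etfb, -0.15 for Etfdh, -0.031 for Acsl1 and -0.52 for Cd36. With quantile normalization they became -0.11 for Idh3b, -0.13 for Idh3g, -0.026 for Suclg1, -0.077 for Mdh2, -0.016 for Etfdh and -0.22 for Acsl1. With median centring they became 0.032 for Idh3a, 0.041 for Eci1 and 0.16 for Decr1. With library quality weights they became 0.038 for Idh3a and -0.087 for Acsl1. With a library left out the changes ranged from -0.26 to 0.098 for Idh3a, from -0.075 to 0.16 for Mdh2, from -0.37 to 0.12 for Eci1, from -0.098 to 0.18 for Acsl1 and from -0.18 to 0.27 for Decr1. The cause was not tested.

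Libraries with the same replicate number did not deviate together (correlations of 0.0532, -0.0643 and -0.0528 for numbers 1, 2 and 3), so they share only a number. With the replicate block 10 of the 37 genes rose and 13 fell, and the change was 0.038 for Idh3a and -0.058 for Acsl1. The block together with GC correction also ended the call of Cpt1b (adjusted p = 0.120). Because WT replicate 4 has no partner, the block leaves it out of the comparison. Depth limits the genes with few reads, above all Cpt1b and Acads (23 to 37 reads in C2-/-).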
